A study of Mus musculus with 18 samples.

Results

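The immunoglobulin light chain loci Igk, on mouse chromosome 6, and Igl, on chromosome 16, were examined as distant partners of the heavy chain enhancer Eμ on chromosome 12. Their fragment ends were taken by position (mm10): 992 ends from 67305636 to 70976754 on chromosome 6 and 365 ends from 18776858 to 19510844 on chromosome 16, each locus with 250 kb on either side. These 1357 ends stand among 383109 that were listed outside chromosome 12 and 440025 in all. The intervals follow annotated gene positions and not measured values, though the loci were chosen with earlier results of these data known.

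A B cell builds its antibody from a heavy chain and a light chain, and the light chain comes from either Igk or Igl. Igk holds a long array of V segments, a short cluster of J segments and the constant gene Igkc, with enhancers around and beyond Igkc. Mouse Igl is small, with few V segments and several J and constant genes, and fewer mouse B cells use it than use Igk.

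The contacts of a bait in Eμ were read by 4C-seq, in which DNA ligated to 1 fixed site after fixation is amplified and sequenced. The cells were CD43-negative B cells from mouse spleen, either Med1 mutant or wild type (WT); Med1 is a subunit of Mediator, which links enhancers to RNA polymerase II. They were cultured for 2 days with LPS and IL4, for 2 days with LPS alone, or used resting, with 3 libraries in each of the 6 groups: mutant and WT with LPS + IL4, mutant and WT with LPS, and mutant and WT at rest. The labels name no Med1 allele, no strain, no age and no cell type in which the mutation arose, and they do not say whether the 3 libraries of a group came from separate animals, so p-values measure the spread between libraries. All groups share the bait, the tissue and the cell selection.

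The titles of the WT libraries at rest and with LPS + IL4 read WTKO, but the genotype field says WT, which was followed here. For WT LPS + IL4 replicate 2 the growth field lists anti-CD40 beside IL4. The 12 libraries at rest and with LPS + IL4 held 2470497 to 21074434 reads, of which 41.3% to 52.5% lay outside chromosome 12. That share was 42.7% to 44.5% in the mutant and 41.3% to 43.9% in WT with LPS + IL4, and 50.6% to 52.5% in the mutant and 51.7% to 52.4% in WT at rest. The 6 libraries with LPS alone list covered ends without read numbers, so their depth is unknown. Each library covered between 38850 and 96399 ends outside chromosome 12. Among the 12 libraries with reads, WT resting replicate 1 and WT LPS + IL4 replicate 3 shared the most ends, and they are the 2 libraries meant below as sharing ends. They had 3235 ends that no other library covered. The next of the 66 pairs of libraries with reads had 1354, and the median pair 278.5. Of those 3235 ends 6 lay in the Igk window and 5 in the Igl window, and leaving both libraries out changed 1 call, given with the activation results. With LPS alone, pairs of opposite genotype shared more. Mutant replicate 2 and WT replicate 3 had 6998 such ends, 9 in the Igk window and 12 in the Igl window. Mutant replicate 3 and WT replicate 1 had 4647, with 7 and 1. No fit or permutation left out both libraries of such a pair. Med1 itself is not measured by 4C-seq.

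Each listed end is an interval of 24 bases beside a cutting site of DpnII, the first enzyme, which cuts at GATC. The ends that fell in gene promoters could be read out in RefSeq sequence (GRCm38.p6, the mm10 assembly), and 4 did so in the light chain windows. They are shown because they are the only light chain ends whose letters were at hand, and they show what a contact looks like in these data. The recognition site is in capitals, and all are on the plus strand.

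Gm30211, chr6:70728989-70729016: GATCttcaaggtcacagaatcactgtct
Rpia, chr6:70792326-70792353: GATCgaccctagtgtgcaaatcgcccgc
Tex37, chr6:70919068-70919095: gtctcaggacatctggaccaactgGATC
Cdc45 and Ufd1, chr16:18812047-18812074: GATCaacgccggaaactctagctgcatt

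The Gm30211 end, in the promoter of a long noncoding RNA gene just beyond Igkc, had 143 reads in WT resting replicate 2 and was covered in no other library. The end of Rpia, which encodes the pentose phosphate enzyme ribose 5-phosphate isomerase, had 27 reads in mutant resting replicate 1 alone. The Tex37 end was listed in WT LPS replicate 2 alone. These 3 ends were thus each seen in 1 of 18 libraries.

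The last end lies in the promoter shared by Cdc45, a component of the replicative helicase, and Ufd1, a cofactor of the p97 ATPase in protein degradation. It had 380 reads in mutant resting replicate 2, 1 read in mutant LPS + IL4 replicate 1 and 129 reads in WT LPS + IL4 replicate 1. The 380 reads made up 17.6% of all reads of the Igl window in that library. In the 21 RefSeq promoters of the light chain windows, 4 of the 18 ends that lie beside a GATC were listed (22.2%). In all promoters outside chromosome 12 it was 1560 of 35673 (4.37%). None of the 4 lay in the promoter of an Igk or Igl gene. The 21 promoters are far fewer than the 162 V segments and V pseudogenes of Igk, so most segments had no promoter among those counted. The difference between the 2 shares was not tested. All 1536 listed ends that could be read with 4 more bases on both sides adjoined a GATC.

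The first question was how often Eμ ligated to the light chain loci compared with other stretches of the same chromosomes. Both loci were covered more densely than nearly all windows of their size. With each end counted once, Igk ranked first among the 40 windows of chromosome 6 in 12 of 18 libraries and second in the other 6. Igl ranked first among the 130 windows of chromosome 16 in 15 libraries and second in 3.

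The Igk window of 3671 kb had 145 covered ends on average. Its covered ends numbered 129, 291 and 150 in mutant and 175, 139 and 132 in WT cells with LPS + IL4. They numbered 138, 131 and 128 in mutant and 162, 127 and 155 in WT cells with LPS. At rest they numbered 99, 114 and 119 in mutant and 146, 139 and 141 in WT cells. The count of 291 belonged to the deepest library.

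Divided by the median of the other 39 windows of chromosome 6, Igk stood at 2.22 ± 0.15 (mean ± SD over 18 libraries), with a range of 1.97 to 2.44. Without the ends of 12 or more libraries the ratio was 2.11, and for the locus without its flanks it was 2.28. By reads in place of ends the ratio averaged 1.71 over 12 libraries, and in WT LPS + IL4 replicate 1 it was 0.868, below the chromosome median. Igk ranked between 3 and 23 of 40 by reads, lower than by covered ends.

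The Igl window of 734 kb had 41.8 covered ends on average. With LPS + IL4 it had 28, 71 and 34 in mutant and 44, 35 and 33 in WT cells. With LPS it had 27, 48 and 32 in mutant and 44, 28 and 51 in WT cells. At rest it had 30, 37 and 38 in mutant and 50, 59 and 63 in WT cells.

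The ratio of Igl to the median of the other 129 windows of chromosome 16 was 3.45 ± 0.89 (mean ± SD over 18 libraries), from 2.55 to 5.36. It was 5.89 for the locus without its flanks and 4.08 without the ends of 12 or more libraries. By reads it averaged 6.44 over 12 libraries and reached 23.9 in WT resting replicate 2. With LPS + IL4 the ratio by reads was 2.11 to 3.07, and Igl ranked between 10 and 29 of 130 by reads. At rest it ranked between 1 and 5. Over the 3336 windows of this size outside chromosome 12, Igl ranked 4 by its mean covered ends, and Igk ranked 4 among 673 windows of its own size.

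**Figure D1:**
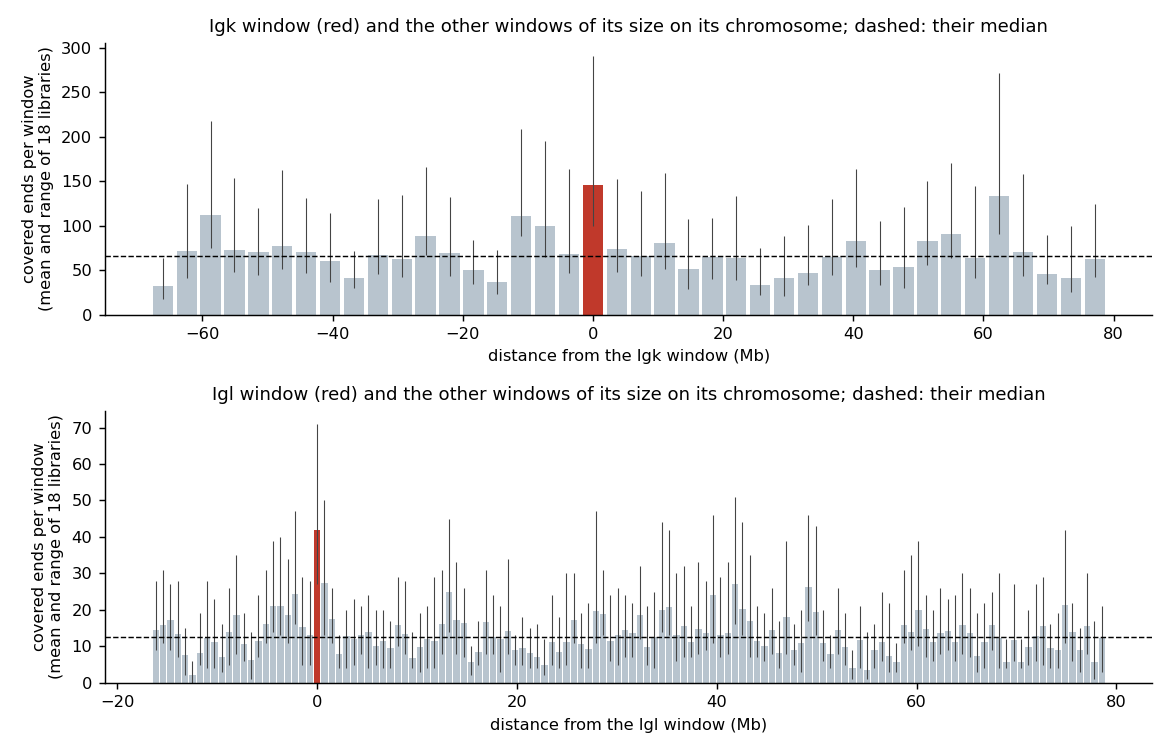
Covered ends per window along chromosome 6 in windows of the size of Igk (top) and along chromosome 16 in windows of the size of Igl (bottom), by distance from the light chain window in Mb. Bars are means over 18 libraries, thin lines run from the lowest to the highest library, and the dashed line is the median of the other windows. The red light chain bars, at 145 and 41.8 covered ends, are the tallest of their chromosomes.

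By gene number the 2 windows stand apart: 7 protein-coding genes touch the Igk window, which ranks 34 of 40 on its chromosome, while 9 touch the Igl window, which ranks 31 of 130 and so lies in the gene-richer part of chromosome 16. Of the 30 other chromosome 16 windows with at least as many genes, the highest had a mean of 27.4 covered ends, against 41.8 for Igl. Of the 33 such windows on chromosome 6, the highest had 133, against 145 for Igk. The loci were also set apart by how many different ends were listed over all libraries. Igk had 992 listed ends, against a median of 510 and a highest value of 803 in the other windows of chromosome 6. Igl had 365, against a median of 98 and a highest value of 259, and more than any other window of its size outside chromosome 12.

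When covered ends were divided by listed ends, Igk stood at 1.19 ± 0.10 times the chromosome median and Igl at 0.934 ± 0.23. An end is listed once it has a read in any library, so this number is not the number of GATC sites, and a window that is reached often lists more ends. The number of sites in each window could not be counted without the genome sequence, and its part in the ratios was not tested.

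The T cell receptor loci, which B cells do not rearrange, were taken with the same flanks. The ratio to their chromosome median was 0.953 in the median library for Trb on chromosome 6, with a range of 0.696 to 1.47. For Tra and Trd on chromosome 14 it was 1.04 (0.842 to 1.50), and for Trg on chromosome 13 it was 1.43 (0.900 to 2.00). The surrogate light chain genes Vpreb1 and Igll1, which pre-B cells use before a light chain is made, had a ratio of 2.13 (1.43 to 3.33). In the median library Igk had 37.7 covered ends per Mb and Igl 51.1, against 33.4 for Vpreb1 and Igll1, 23.6 for Trg, 17.9 for Tra and Trd, and 15 for Trb. These are descriptions over libraries that share 1 bait, and the differences between loci were not tested.

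The coverage was spread unevenly within the loci. In Igl the ends concentrated on the gene cluster itself: 191 of 365 listed ends lay in its 234 kb, with 87.6 covered ends per Mb in the median library. The flank on the side of Hira, which encodes a histone chaperone, had 46.0 per Mb, and the flank with the olfactory receptor genes had 36.0. In Igk the part of the V array farthest from Igkc, the middle part and the part next to Igkc were alike, with 36.9, 41.6 and 35.9 covered ends per Mb. The flank before the V segments had 24 per Mb and the flank beyond Igkc 42.

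The 60 kb from 10 kb before Igkc to 50 kb beyond it, which takes in the J segments and the known kappa enhancers, stood out with 64 listed ends and 107.8 covered ends per Mb. Its share was 4.39, 7.72 and 3.70 reads per 10000 reads outside chromosome 12 in mutant cells with LPS + IL4, and 1.08, 9.16 and 1.21 in WT cells. At rest it was 3.02, 0.640 and 0.730 in mutant and 3.57, 3.32 and 1.33 in WT cells. In the mutant all LPS + IL4 libraries were above all resting libraries, as they were in 2356 of 30695 windows of this size (7.68%). In WT the conditions overlapped only through LPS + IL4 replicate 2 (9.16), whose growth field lists anti-CD40. WT LPS + IL4 replicates 1 and 3 lay below every resting WT library. Replicate 2 also enters the WT value of the 250 kb piece that follows. The piece of 250 kb that holds Igkc (70555636 to 70805635) had a log2 difference between LPS + IL4 and rest of 1.99 ± 0.67 in the mutant and 0.44 ± 0.64 in WT (SE), with adjusted p = 0.527 and 0.864 by edgeR, so neither passed.

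**Figure D2:**
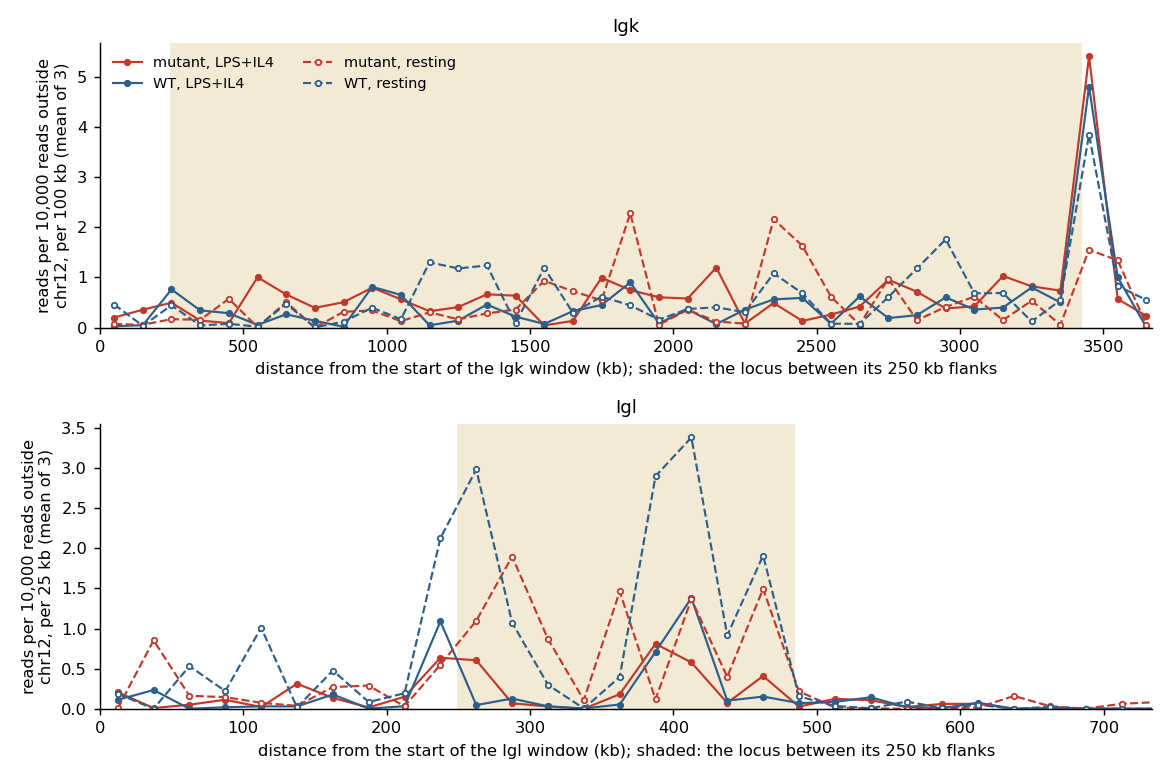
Reads per 10000 reads outside chromosome 12 along the Igk window in steps of 100 kb (top) and the Igl window in steps of 25 kb (bottom), by distance from the window's start in kb. Each point is the mean of 3 libraries (solid, LPS + IL4; dashed, resting; red, mutant; blue, WT), and the shaded span is the locus between its flanks. In Igk the highest step in both LPS + IL4 groups and in resting WT cells holds Igkc. It stands at 5.42 in mutant and 4.81 in WT cells with LPS + IL4 and 3.85 in WT cells at rest. In the 60 kb around Igkc, WT LPS + IL4 replicate 2 had 9.16, against 1.08 and 1.21 in the other WT LPS + IL4 libraries. In Igl the reads lie on the locus and are higher at rest.

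The ends were spread over segments, genes and the stretches between them. Of the 162 V segments and V pseudogenes of Igk, which are short, 25 held a listed end, and these 29 ends made up 2.92% of the window. No end fell inside a J segment of Igk or inside Igkc itself. Of the protein-coding genes, 5 of 7 in the Igk window and 6 of 9 in the Igl window held an end, with 5.85% of the Igk ends and 15.3% of the Igl ends. The long noncoding RNA gene Gm30211, just beyond Igkc, held 41 listed ends, the most of any gene in either window, with at least 1 covered in every library. Hira had 34 listed ends and at least 1 covered end in every library. Il12rb2, a chain of the IL-12 receptor in the far Igk flank, also had 1 or more in all 18 libraries. Eif2ak3, the stress kinase PERK, had an end covered in 16 libraries, and Rpia in 15. The tight junction gene Cldn5 and the forkhead gene Foxi3 held none.

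Most ends were seen once: 58.6% of the Igk ends and 63.0% of the Igl ends were covered in a single library, against 64.2% of all ends outside chromosome 12. Ends covered in 12 or more of the 18 libraries numbered 43 in Igk (4.33%) and 5 in Igl (1.37%), against 11622 of all (3.03%). With such ends alone, Igk had 3.50 times the chromosome median in the median library and Igl 1.50 times. With the remaining ends the ratios were 2.09 for Igk and 3.79 for Igl. Igl thus ranked first on its chromosome by the ends seen in fewer libraries, and 32 of 130 by its recurrent ends.

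5 Igk ends were covered in all 18 libraries. The one with the most reads on average lay 835 bp from Igkv4-80, a V segment in the middle of the array (69017915 to 69017938). It had 79, 218 and 50 reads in mutant and 64, 41 and 19 in WT cells with LPS + IL4, and 10, 16 and 17 in mutant and 40, 17 and 34 in WT cells at rest. Read numbers move with depth: the 218 reads are the lowest mutant LPS + IL4 share, 23.3 per 1000000 reads outside chromosome 12, against a highest of 52.6. As such shares the end averaged 39.7 ± 14.9 in mutant and 20.5 ± 7.37 in WT cells with LPS + IL4, and 10.3 ± 2.61 in mutant and 12.8 ± 4.87 in WT cells at rest (SD, n = 3 each). The next, 5299 bp from Igkv4-51, had between 9 and 291 reads. The other 3 lay 23739 bp from the pseudogene Igkv4-77, 3643 bp from the pseudogene Igkv1-136 and 2583 bp from the pseudogene Gm25436, with medians of 8.5, 13.5 and 5.5 reads.

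The 5 further ends of Igk that follow were covered in 17 libraries. Among them the end 3556 bp from Igkv8-21 had the highest share of any of these ends, a mean of 29.5 per 1000000 reads outside chromosome 12. It had 135, 198 and 8 reads in mutant and 41, 41 and 48 in WT cells with LPS + IL4, against 54, 16 and 15 in mutant and 70, 35 and 122 in WT cells at rest. Per 1000000 reads it averaged 39.3 ± 44.4 in mutant and 23.6 ± 7.16 in WT cells with LPS + IL4, and 21.1 ± 17.8 in mutant and 33.9 ± 25.5 in WT cells at rest (SD, n = 3 each), and the groups overlapped.

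In Igl 1 end was covered in all 18 libraries. It lay within the locus, 6579 bp from the pseudogene Gm18748 (19174658 to 19174681), with 18, 70 and 8 reads in mutant and 11, 20 and 12 in WT cells with LPS + IL4. At rest it had 1, 43 and 8 reads in mutant and 1, 9 and 23 in WT cells. Per 1000000 reads that was 6.90 to 12.0 in mutant and 4.31 to 11.9 in WT cells with LPS + IL4, and 0.772 to 27.8 in mutant and 0.321 to 11.9 in WT cells at rest, so the groups overlapped. The end next to Iglj3, the J segment of the lambda 3 unit, lay 1493 bp away and was covered in 12 libraries. It had 4, 14 and 0 reads in mutant and 10, 0 and 7 in WT cells with LPS + IL4, against 2, 0 and 81 in mutant and 7, 3 and 3 in WT cells at rest.

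The next question was whether activation with LPS and IL4 moved the contacts of Eμ with the light chain loci. The share of reads from Igl was lower in every LPS + IL4 library than in any resting library. The fall passed the test in WT cells, a call that 17 of 26 alternatives did not keep, and the mutant did not pass. With LPS + IL4 the Igl window took 3.90, 6.34 and 4.19 reads per 10000 reads outside chromosome 12 in mutant cells and 4.67, 5.41 and 4.17 in WT cells. At rest it took 10.1, 13.9 and 11.5 in mutant cells and 13, 30.0 and 14.3 in WT cells. Within both genotypes the LPS + IL4 libraries lay below the resting ones in 65 of 3332 windows of this size (1.95%), Igl among them.

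In WT cells the Igl window averaged 4.75 ± 0.63 with LPS + IL4 and 19.1 ± 9.47 at rest (SD, n = 3 each), and it fell by 2.01 ± 0.39 on the log2 scale (SE; edgeR quasi-likelihood test, adjusted p = 0.0394). It was 1 of 5 windows called among 3332 (0.15%), all lower. In mutant cells it averaged 4.81 ± 1.33 with LPS + IL4 and 11.8 ± 1.96 at rest (SD, n = 3 each). The log2 difference there was -1.30 ± 0.38 with adjusted p = 0.216, in a comparison that called 9 windows (0.27%). The median log2 value over all windows was 0.20 in WT and 0.18 in the mutant. Between genotypes the changes differed by 0.71 ± 0.54 on the log2 scale (mutant minus WT, edgeR, adjusted p = 0.969).

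Over both genotypes the log2 difference was -1.61. An exact permutation of the condition within genotype, added after the separation had been seen, could only return its smallest value (p = 0.005 over 400 arrangements, adjusted p = 0.03 over 6 such tests) and adds nothing to that separation. Leaving out any 1 library gave -1.73 to -1.42. Without the 2 libraries that share ends the difference was -1.68, and the WT fit gave -2.14 with edgeR adjusted p = 0.166. Without WT LPS + IL4 replicate 2 the WT fit gave -2.11 with edgeR adjusted p = 0.0869, and without WT resting replicate 2, the library with the highest share, -1.52 with 0.195. Of the 12 fits that each left out 1 library, the WT call was kept without mutant LPS + IL4 replicate 1 and without mutant LPS + IL4 replicate 2, and lost without each of the other 10.

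Covered ends, which weigh every end alike however many reads it has, moved the same way by less. They numbered 7.25 ± 0.52 per 10000 in WT cells with LPS + IL4 and 12.2 ± 1.56 at rest (SD, n = 3 each). The log2 change was -0.74 ± 0.14 (edgeR on covered ends, adjusted p = 0.00291), in a comparison that called 54 windows of 3249 (1.66%). In the mutant they numbered 7 ± 0.32 with LPS + IL4 and 8.85 ± 0.97 at rest, a log2 difference of -0.32 ± 0.15 that did not pass (edgeR adjusted p = 0.605). With LPS alone they numbered 8.20 ± 1.96 in mutant and 8.51 ± 1.26 in WT cells. The LPS libraries were deposited later and processed with another aligner, so no test was made against them.

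A 95% exact binomial interval on 1 library covers 10.3 to 17.4 per 10000 around the 13.5 of WT resting replicate 2, and 4.63 to 9.45 around the 6.73 of WT LPS + IL4 replicate 3. Such intervals cover counting error only. In some libraries few ends carried the reads: the largest end held 63.5% of the Igl reads of WT LPS + IL4 replicate 3 and 45.9% in replicate 2, against 10.6% in WT resting replicate 2. With each end limited to the 99th percentile of reads, the WT value was -1.97 (edgeR adjusted p = 0.103).

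**Figure D3:**
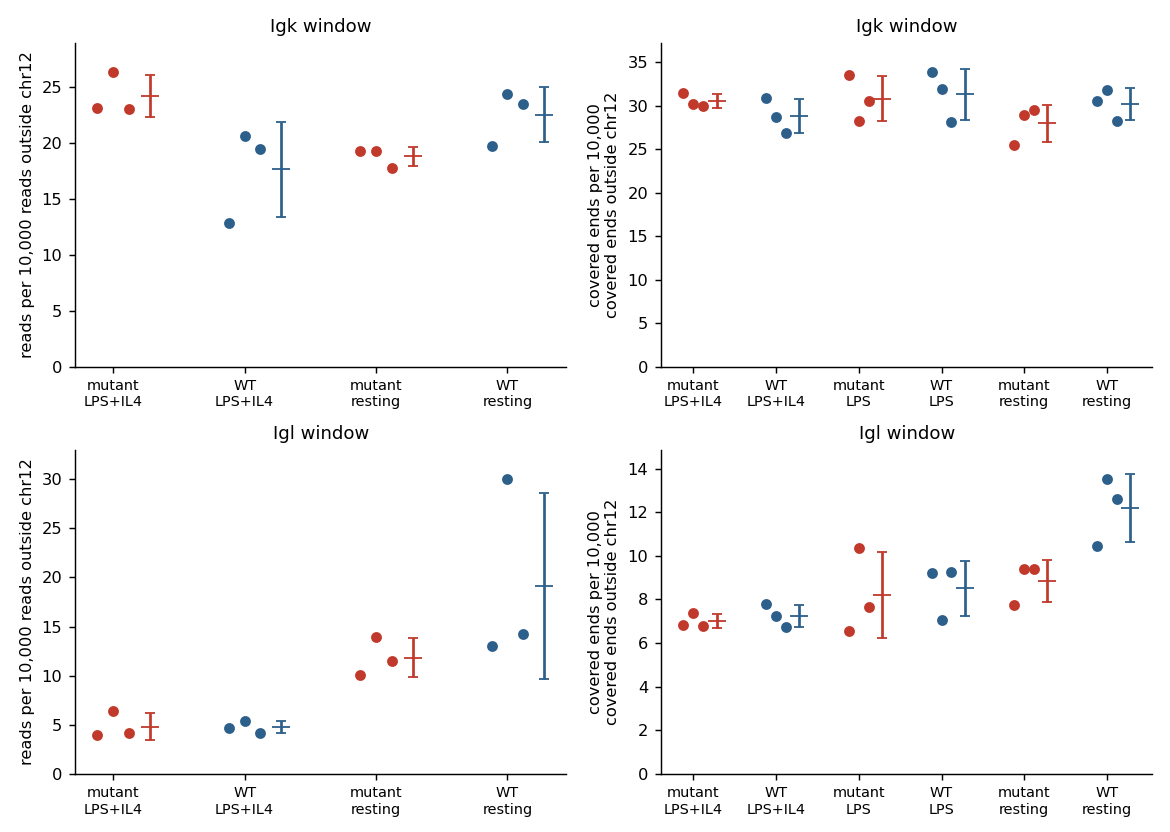
Share of the Igk window (top) and the Igl window (bottom) in each library, as reads per 10000 reads outside chromosome 12 (left) and as covered ends per 10000 covered ends outside chromosome 12 (right). Points are libraries and the bars to their right are mean ± SD of 3. For Igl all LPS + IL4 libraries lie at or below 6.34 reads per 10000 and all resting libraries at or above 10.1, while the Igk shares lie between 12.8 and 26.4.

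The lower share was found on the Igl genes themselves. There the reads were 2.04, 4.02 and 2.24 per 10000 in mutant and 2.84, 4.52 and 0.461 in WT cells with LPS + IL4, against 9.58, 9.57 and 7.42 in mutant and 9.84, 22.5 and 9.25 in WT cells at rest. No LPS + IL4 library reached a resting one, which was so for 40 of 10556 windows of this size (0.379%). For this part alone, among windows of 234 kb, the log2 value was -2.41 in WT and -1.68 in the mutant, and neither passed (edgeR adjusted p = 0.536 and 0.55). The Hira flank averaged 1.65 ± 0.47 in mutant and 1.73 ± 1.26 in WT cells with LPS + IL4, against 2.42 ± 1.89 in mutant and 4.85 ± 2.25 in WT cells at rest (SD, n = 3 each). The olfactory receptor flank had 1.09 or fewer in every library.

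The window next to Igl (19510845 to 20244831) holds olfactory receptor genes, Lamp3 and Klhl6, a gene of the B cell lineage. It was the other called window of chromosome 16, and the change was called in both genotypes. It averaged 1.84 ± 0.33 reads per 10000 in mutant and 3.20 ± 0.97 in WT cells with LPS + IL4, against 9.31 ± 1.61 in mutant and 17.8 ± 3.85 in WT cells at rest (SD, n = 3 each). It fell by 2.34 ± 0.41 in the mutant and by 2.48 ± 0.41 in WT on the log2 scale (edgeR adjusted p = 0.0137 and 0.0216). The stretch between this window and the Igl genes, the flank with the olfactory receptors, stayed low in both conditions. No fit was made on that flank as such. The last Igl piece of the 250 kb tiling (19276858 to 19510844) takes in most of it. Its log2 value was -0.03 ± 1.26 in the mutant and 0.66 ± 1.26 in WT (SE), from few reads and with wide errors. On the other side of Igl the window before it had log2 values of 0.74 in the mutant and -0.33 in WT.

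**Figure D4:**
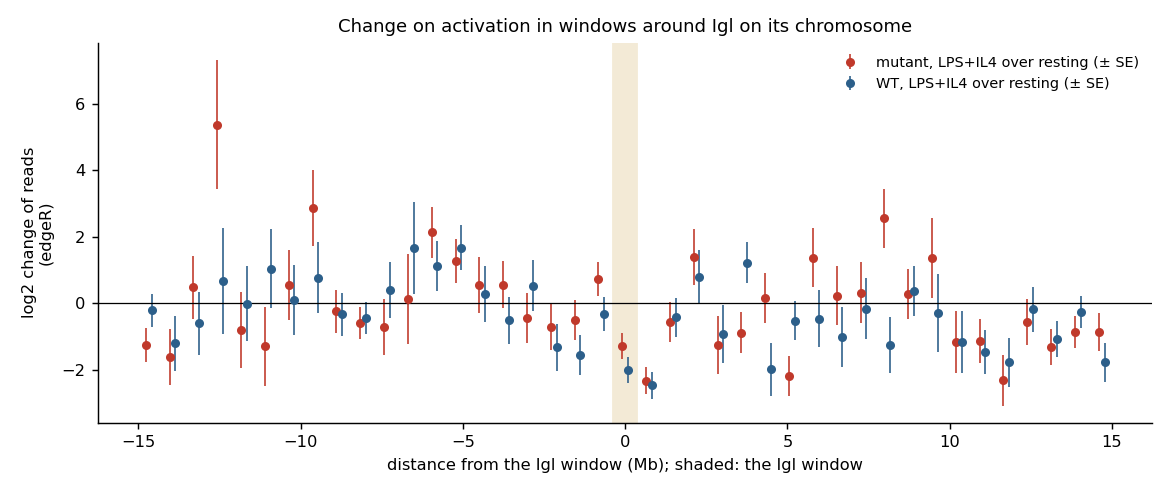
Log2 change of reads between LPS + IL4 and rest (edgeR, ± SE) in windows of the size of Igl up to 20 windows to either side of it, by distance in Mb, in mutant (red) and WT (blue) cells. The Igl window is shaded, at -1.30 in the mutant and -2.01 in WT. The next window to its right is lower still, at -2.34 in the mutant and -2.48 in WT.

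Igk did not pass in either genotype. It took 23.1, 26.4 and 23.1 reads per 10000 in mutant and 12.8, 20.7 and 19.5 in WT cells with LPS + IL4, against 19.3, 19.3 and 17.8 in mutant and 19.8, 24.4 and 23.5 in WT cells at rest. In the mutant the LPS + IL4 libraries lay above the resting ones, as they did in 104 of 673 windows of this size (15.5%). In WT the conditions overlapped. Igk was not among the 44 windows of its size (6.54%) in which every LPS + IL4 library lay below every resting library in both genotypes. The log2 difference between LPS + IL4 and rest was 0.36 ± 0.26 in the mutant and -0.36 ± 0.26 in WT (SE; edgeR adjusted p = 0.442 and 0.408), where 53 and 48 of 673 windows were called (7.88% and 7.13%).

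The 2 Igk changes differed by 0.72 ± 0.37 on the log2 scale (mutant minus WT, edgeR, unadjusted p = 0.0574, adjusted p = 0.779). Over both genotypes the log2 difference was -0.01 (exact permutation p = 0.955, adjusted 0.955). By covered ends the Igk share was 30.5 ± 0.79 per 10000 in mutant and 28.9 ± 1.99 in WT cells with LPS + IL4. It was 28 ± 2.17 in mutant and 30.2 ± 1.84 in WT cells at rest (SD, n = 3 each).

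The last question was whether the Med1 mutation changed these contacts. No genotype comparison called either light chain window. With LPS + IL4 the log2 difference between mutant and WT was 0.46 ± 0.26 for Igk (edgeR adjusted p = 0.971) and 0.02 ± 0.38 for Igl (0.998). For Igk all 3 mutant libraries lay above all 3 WT libraries with LPS + IL4, which was so for 45 of 673 windows of this size (6.69%). At rest the log2 difference was -0.26 ± 0.26 for Igk (edgeR adjusted p = 0.872) and -0.69 ± 0.38 for Igl (0.771).

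At an unadjusted p under 0.05, 24 Igk-size and 120 Igl-size windows passed with LPS + IL4, and 52 and 212 at rest, while after adjustment edgeR called 0. DESeq2 called 0 and 0 windows with LPS + IL4 and 5 and 19 at rest, with neither light chain window among them. With LPS alone limma gave -0.02 ± 0.09 for Igk and -0.06 ± 0.16 for Igl on the log2 scale of covered ends (adjusted p = 0.983 and 0.999). In these fits 0 windows passed after adjustment, and 24 of 672 and 92 of 3170 did at an unadjusted p under 0.05. None of the 13 alternative fits of the LPS libraries called a light chain window. In this comparison mutant and WT libraries shared many ends, as given above, and what that did to the values was not tested.

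At rest the covered ends of Igl were fewer in the mutant, with 7.72, 9.41 and 9.41 per 10000 in mutant and 10.5, 13.5 and 12.6 in WT cells. The groups did not overlap, as was so in this direction for 185 of 3237 windows of this size (5.72%). The log2 difference was -0.46 ± 0.14 with an unadjusted p of 0.00962, which did not pass over all windows (edgeR adjusted p = 0.999). The resting and LPS + IL4 libraries of WT replicate 3 and mutant replicates 2 and 3 were set against the other libraries with reads, a division that no label names. At 90 ends of chromosome 12, picked for this contrast, they carried many reads where the others carried few. Other divisions were not counted, so the 90 ends do not tell how strong it is. Within the set of WT replicate 3 and mutant replicates 2 and 3 the log2 difference was -0.42, from 2 mutant libraries and 1 WT library at rest. Within the other set it was -0.62, from 1 mutant library and 2 WT libraries. The resting mutant libraries were also shallower, covering 38850 to 40383 ends outside chromosome 12 against 43671 to 49998 in WT. At an equal number of reads the log2 difference was -0.53 ± 0.16 (edgeR adjusted p = 0.989).

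Over LPS + IL4 and rest together, the log2 difference in reads between mutant and WT was 0.11 for Igk and -0.30 for Igl, with exact permutation p = 0.595 and 0.27 (400 arrangements within condition, adjusted 0.887 and 0.54). For covered ends over all 3 conditions it was -0.02 for Igk and -0.19 for Igl, with exact permutation p = 0.74 and 0.0798 (8000 arrangements, adjusted 0.887 and 0.239).

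In pieces of 250 kb, 0 of the 18 light chain pieces passed in any of 5 comparisons by edgeR, and 0 of 9724 pieces passed in all (0%). At an unadjusted p under 0.05, 1 light chain piece passed for activation in WT and 3 for activation in the mutant. For the difference of these changes 2 passed, for genotype at rest 1 and for genotype with LPS + IL4 0. How many of all 9724 pieces did so was not counted, so these numbers cannot be read as many or few. DESeq2 called 2 light chain pieces, where it called 329 of 9724 pieces for activation in WT and 267 in the mutant. One was the Igl piece from 19026858 to 19276857 in WT activation, with 2.68 ± 2.06 reads per 10000 with LPS + IL4 and 14 ± 7.37 at rest. The other was the Igk piece from 69555636 to 69805635 in mutant activation, with 0.637 ± 0.30 with LPS + IL4 and 3.86 ± 1.55 at rest (SD, n = 3 each). By edgeR their log2 values were -2.39 ± 0.66 and -2.60 ± 0.74, with adjusted p = 0.506 and 0.527.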

How the data were processed

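The authors deposited raw counts of reads at fragment ends, 24 bp each, for the 12 libraries at rest or with LPS + IL4. For the 6 LPS libraries the deposited lists hold covered ends without counts. Bowtie, Bowtie2 for the LPS libraries, and mm10 are named in the submitters' processing notes; mapping filters are not given in the sources used here. Reads carry no molecular identifiers. The loci, the parts, the named ends and the comparison loci were chosen with earlier results of these data known. Named ends were the 10 per locus covered in the most libraries.

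Reads were summed over each light chain window and over windows of equal size tiled from it, or from the start of other chromosomes, outside chromosome 12. Windows with a mean of 10 reads or more entered edgeR 4.0.16 (quasi-likelihood, 12 libraries, group means, library size the reads outside chromosome 12, R 4.3.3), with Benjamini-Hochberg adjustment over all windows and a threshold of 0.05. LPS covered ends were tested with limma 3.58.1 on log2 shares with a pseudocount of 1 and a mean of at least 5 ends. Single values over conditions used exact permutation. DESeq2 1.42.0 was an alternative. On data simulated from these libraries, for WT activation over 3332 windows, 1.52% of changes of 2 on the log2 scale and 0% of changes of 1 or 0.5 were called, with 0 false calls among 3132, so a missing call says little. No pairing was used in the main fits. Same-numbered libraries did not deviate together over windows (correlations from -0.02 to 0.04). That check cannot tell whether they share an origin, because the 2 libraries that share ends gave only 0.0122. Python 3.11.15 did the rest.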

Additional observations from a re-analysis of the deposited data

How the results depend on the processing

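Under the alternatives, 443 values kept their direction and their side of the threshold or size, 17 lost a call, 5 gained one, 7 moved in size and 1 reversed. No alternative called a genotype difference, a difference of activation changes or an Igk change in the window fits. The Igl change in WT activation kept its direction in all 26 alternatives but lost its call (edgeR) with reads capped (-1.97, adjusted p = 0.103), ends with at least 2 reads (-2.02, 0.0509), only the groups compared (-2.01, 0.0875), the locus without flanks (-2.41, 0.536), without the 2 libraries that share ends (-2.14, 0.166) and without recurrent ends (-1.93, 0.111). Leaving out 1 library gave -2.22 to -1.52 (adjusted p 0.0322 to 0.195, called in 2 of 12). With a replicate block it was -1.91 (edgeR adjusted p = 0.0691), a block on numbers of which it is not known whether they pair the libraries. In the mutant, DESeq2 called it (-1.53, adjusted p = 0.0124); leaving out 1 library gave -1.55 to -1.16. Permutation alternatives carry unadjusted p-values only, so the calls they gained are not adjusted as the main tests were, over 6 tests. At an unadjusted p under 0.05 the genotype difference of Igl over 2 conditions passed with covered ends (-0.26, exact permutation p = 0.035). With covered ends at equal depth it was -0.29 (exact permutation p = 0.06). Leaving out 1 library gave -0.41 to -0.11 for reads, with exact permutation p = 0.045 without mutant LPS + IL4 replicate 2. Over 3 conditions leaving out 1 library gave -0.25 to -0.14, with exact permutation p = 0.0163 without mutant LPS replicate 2 and 0.0383 without WT LPS replicate 2. The ratio to the chromosome median became 1.19 (Igk) and 0.934 (Igl, the only reversal) per listed end, 1.71 and 6.44 by reads, and 5.89 for Igl without flanks. DESeq2 called 2 light chain pieces, where it called 329 of 9724 pieces for activation in WT and 267 in the mutant. Covered ends called 1, the Igl piece from 19026858 to 19276857 in WT activation, where 9 of 8726 pieces were called. Covered ends at equal depth called the same piece, where 20 of 8196 were called. For activation, 5 Igl-size windows in WT and 9 in the mutant became 92 and 106 with DESeq2, 54 and 74 with covered ends, 62 and 63 at equal depth, 12 and 10 with TMM, 17 and 12 with chromosome 12 in the library size, 1 and 2 with reads capped, 2 and 8 with at least 2 reads, 2 and 5 with only the groups compared, 0 and 1 with the replicate block, 0 and 0 without flanks, 1 and 8 without the libraries that share ends, and 0 to 8 and 0 to 10 leaving out 1 library. The 48 and 53 Igk-size windows became 74 and 76 with DESeq2, 75 and 67 with chromosome 12 in the library size, 24 and 43 with the replicate block, 22 and 51 without the libraries that share ends, and 22 to 50 and 29 to 55 leaving out 1 library. The block changed no other call on the light chain windows. The causes were not tested.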
